A study of Mus musculus with 6 samples.

Results

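A set of 41 genes of S-phase DNA replication were examined in RNA-seq of cultured primary mouse microglia. The members were chosen by symbol from a named list, with no measured value in the rule. Earlier results of these data were known at that choice, so no test over the list is given. The members make up 41 of the 41079 genes in the count table. They fall into 7 groups by role, which are origin licensing with 10 genes, helicase activation with 5, the sliding clamp and its loader with 5, DNA synthesis with 7, nucleotide supply with 5, chromatin with 3, and the E2F factors and E cyclins with 6. All 41 had enough counts to be tested, among 14618 genes tested in all.

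Microglia, the resident immune cells of the brain, came from C57Bl/6N mice 1 to 3 days old, were grown in flasks with L-929 conditioned medium and were collected by shaking. They were then kept in serum-free DMEM/F12 as control cultures or in the optimized medium, with 3 libraries in each group. According to the labels the second group received human TGFbeta, human IL34 and CX3CL1 at 100 ng/mL each, and the study's methods add cholesterol, insulin-transferrin-selenium and a collagen IV coating, so that no single agent can be told apart here. Both groups share the earlier expansion in conditioned medium, a source of macrophage growth factor, and a short time in serum-containing medium at seeding. No label ties a library to its own animals or culture, though the study calls its samples biological replicates. The p-values rest on the spread between these libraries. That spread exceeded counting noise, with a chi-square per degree of freedom from 10.8 to 79.9 between 2 libraries of a group, and it may still be technical.

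Before S phase, the origin recognition complex, Cdc6 and Cdt1 load the MCM helicase, a ring of 6 different subunits, onto DNA. Mcm10, Cdc45 and the GINS complex then turn the loaded ring into a moving helicase, and replication factor C places the PCNA clamp that holds the polymerases on the template. Many genes of this machinery are targets of the E2F transcription factors, which the retinoblastoma protein holds back until cyclin E and its kinase act. In the brain microglia divide slowly, and in culture their division follows the growth factors of the medium.

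The promoters of members are shown first because E2F sites are the best-known shared feature of these genes. RefSeq promoter sequences (build GRCm38.p6) were at hand for 35 of the 41 members, with 41 start sites, and the 6 members without an entry were Ccne2, Pole, Gins1, Gins2, Mcm4 and Rfc2. Each sequence covers 250 bases before and 50 bases after a start. An E2F word, here any of TTTCCCGC, TTTGGCGC, TTTCGCGC and TTTGCCGC on either strand, with overlapping words counted, was present in 15 of the 41 member promoters (36.6%), against 2.26% of all 32851 promoters of the same length and 3.81% of the 13990 promoters of genes tested. CCAAT, the word bound by the factor NF-Y, stood in 61.0% of member promoters, 37.4% of all promoters and 37.3% of promoters of genes tested. TTTGAA or TTCGAA, the words of the CHR element of mitotic genes, stood in 19.5%, 19.2% and 14.5% of the same 3 sets. A match is a match of letters and not a measured binding site.

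The stretches before the start are printed 5′ to 3′ in the direction of the gene, with E2F and CCAAT words or their reverse complements in capitals and everything else in lower case. They are the member with the largest change in 3 role groups (Cdc6, Uhrf1 and E2f2) and, added after the values had been seen, the MCM subunits that fell the most and the least (Mcm5 and Mcm6). Positions are those of exact matches in GRCm39, and bases within an annotated GENCODE M39 exon were left out, which removed all 250 bases for Rrm2, the member with the largest change in the nucleotide group. The Cdc6 stretch, at chr11:98798808-98798976 on the + strand, is intronic to transcripts that start farther upstream. The stretches of Uhrf1 at chr17:56610087-56610274, E2f2 at chr4:135899335-135899584 and Mcm5 at chr8:75835887-75836136, all on the + strand, and of Mcm6 at chr1:128287517-128287692 on the - strand, lie upstream of the annotated genes.
Cdc6: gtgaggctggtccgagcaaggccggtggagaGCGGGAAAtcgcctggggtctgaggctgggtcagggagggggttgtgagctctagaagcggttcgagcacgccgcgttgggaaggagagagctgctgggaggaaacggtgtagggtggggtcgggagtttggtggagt
Uhrf1: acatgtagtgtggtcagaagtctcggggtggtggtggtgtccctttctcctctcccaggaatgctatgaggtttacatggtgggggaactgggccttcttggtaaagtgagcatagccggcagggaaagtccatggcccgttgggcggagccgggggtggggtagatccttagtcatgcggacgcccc
E2f2: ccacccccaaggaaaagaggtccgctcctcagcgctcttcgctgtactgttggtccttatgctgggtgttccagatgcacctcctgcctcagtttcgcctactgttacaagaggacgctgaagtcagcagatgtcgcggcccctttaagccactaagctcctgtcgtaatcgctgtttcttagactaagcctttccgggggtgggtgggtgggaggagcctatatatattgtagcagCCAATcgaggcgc
Mcm5: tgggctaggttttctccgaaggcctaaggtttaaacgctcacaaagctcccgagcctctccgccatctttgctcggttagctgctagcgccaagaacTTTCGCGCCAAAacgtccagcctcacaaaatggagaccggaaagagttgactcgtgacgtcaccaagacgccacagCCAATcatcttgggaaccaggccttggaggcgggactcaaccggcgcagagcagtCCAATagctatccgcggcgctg
Mcm6: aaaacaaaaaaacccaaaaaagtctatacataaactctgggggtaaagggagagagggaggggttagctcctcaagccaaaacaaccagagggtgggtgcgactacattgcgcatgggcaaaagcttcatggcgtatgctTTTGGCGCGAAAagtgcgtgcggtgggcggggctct

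Cdc6 held 1 E2F word here, and Mcm5 and Mcm6 each held 2 overlapping ones. A further E2F word of Mcm6 began 47 bases before the start, and CCAAT words began 57 and 14 bases before it, all within an annotated exon. The Uhrf1 stretch held neither word. In the bases not printed, CCAAT words of Uhrf1 began 30 and 2 bases before the same start and 2 bases into the transcript. The E2F word of Uhrf1 lay before a second start of the gene. E2f2 held a CCAAT word in the stretch and an E2F word 40 bases into the transcript. Members with and without an E2F word were both mostly lower under the optimized conditions. By the test given below, 11 of the 15 genes with a word fell, and the median log2 fold change of the 15 was -0.86. Of the 20 genes with a promoter entry and no word 19 fell, with a median of -0.83 over the 20. Among all genes tested 15.2% were lower. Only the listed words in 300 bases around a start were searched, so genes without a word may still hold E2F sites. The part of E2F sites in the fall was not tested.

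Of the 41 members, 34 fell under the optimized conditions, 1 rose and 6 did not pass the test (edgeR's quasi-likelihood test, Benjamini-Hochberg adjusted p under 0.05 over all genes tested, called the edgeR adjusted p from here on). The background was 15.2% of all genes tested lower and 14.7% higher. The members' median log2 fold change, optimized over control, was -0.81, a 1.76-fold lower level, against 0.008 for all genes tested. Values ran from -1.82 for Uhrf1 to 1.79 for E2f2, and 39 of the 41 were negative. In 36 members every optimized library lay below every control library, which held for 22.5% of all genes tested, and in 1 member, E2f2, every optimized library lay above. The libraries of the groups overlapped in 4 members (Cdt1, Gins3, Rfc2 and Rfc4). In bulk RNA, fewer cells in S phase and less of these transcripts per cell cannot be told apart.

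**Figure D1:**
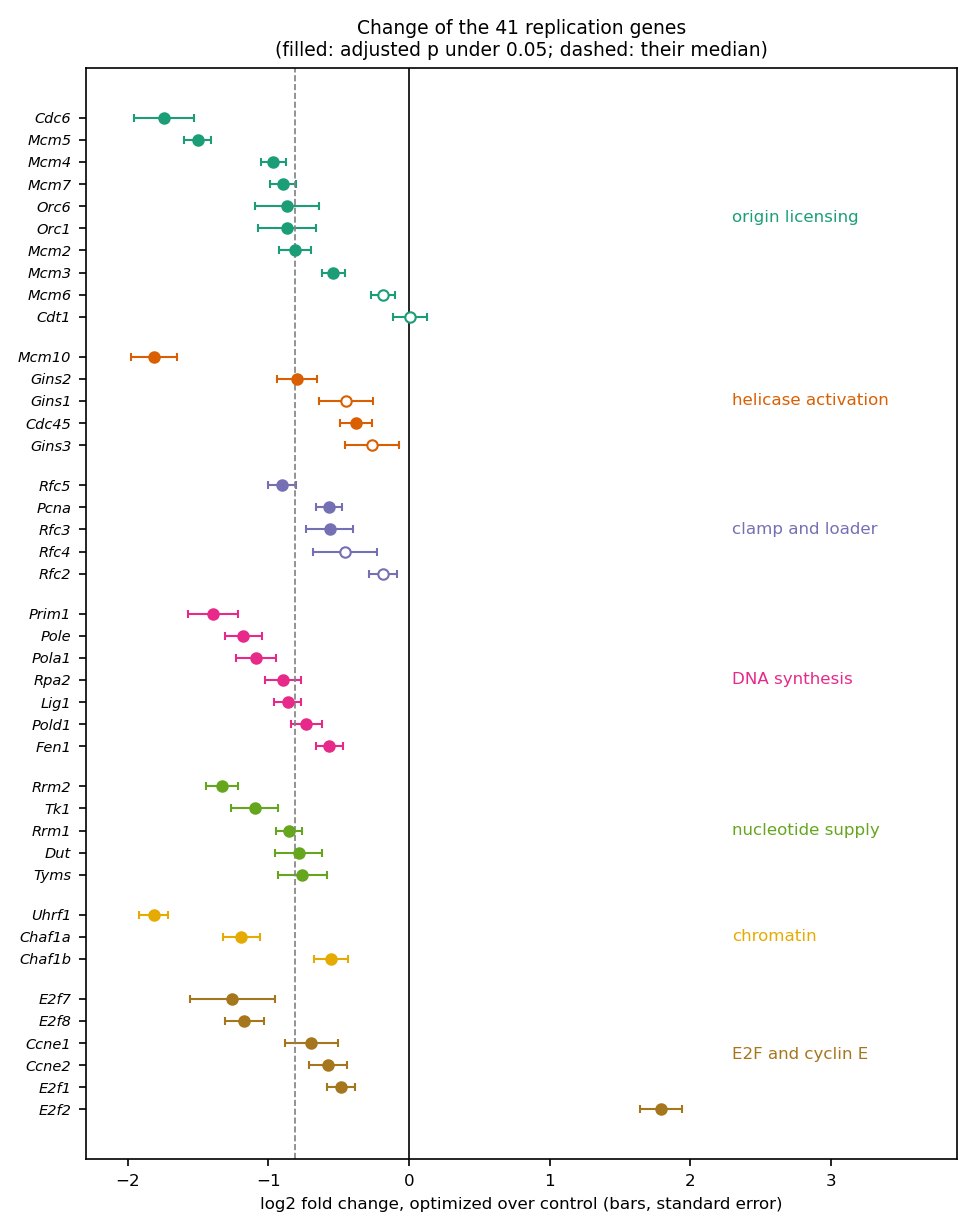
Log2 fold change, optimized over control, of the 41 replication genes, grouped by role, with the standard error of the edgeR fit as bars; filled points passed an adjusted p of 0.05 and the dashed line is the members' median of -0.81. E2f2 at 1.79 stands alone on the right, while Uhrf1, Mcm10 and Cdc6 reach -1.7 and below.

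Levels of a gene across libraries are given as CPM, the usual scale of counts relative to library size, with TMM factors applied. Summed over the members, control libraries held 1266, 1257 and 1290 CPM and optimized libraries 750.1, 830.2 and 841.2 CPM. The sum was 1271 ± 17.1 CPM against 807.2 ± 49.7 CPM (SD, n = 3 each), a 1.57-fold lower level, and no library of one group reached the other. As a share of raw counts the members made up 0.133% ± 0.0032 in control and 0.0770% ± 0.0026 in optimized libraries (SD, n = 3 each). The 6 libraries held 20628148 to 27261839 counts in genes, and the members ranged from Orc1 with 33 to 91 counts and E2f7 with 21 to 116 counts per library to Pcna with 3684 to 8230.

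**Figure D2:**
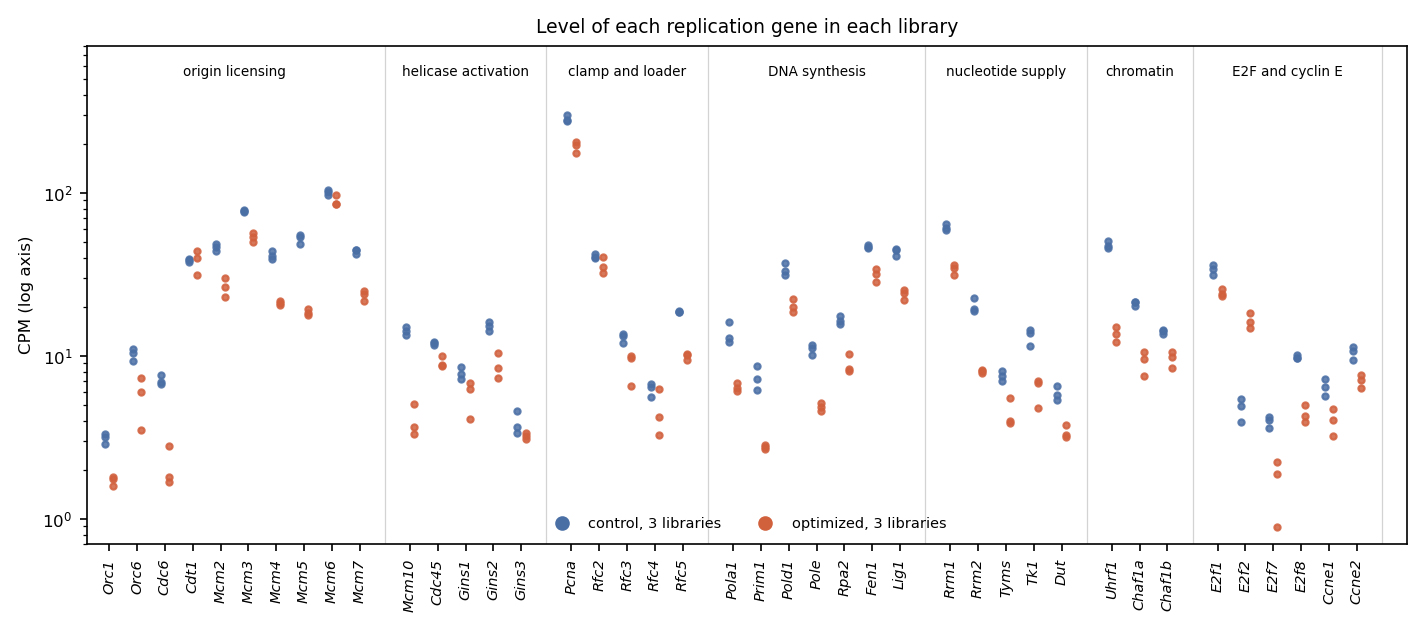
CPM on a log axis of each member in each of the 3 control and 3 optimized libraries, ordered by role. Pcna lies above every other member in both groups, and the optimized points lie under the control points in 36 members.

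Origin licensing changed in 8 of its 10 genes, all lower, with a median log2 fold change of -0.87. Cdc6, the loader that brings MCM to the origin recognition complex, had 6.86, 7.67 and 6.70 CPM in control and 1.80, 2.81 and 1.69 CPM in optimized libraries. All optimized values lay far below the lowest control value, a 3.34-fold fall (log2 fold change -1.74 ± 0.21 SE, edgeR adjusted p = 0.000181). Cdc6 stands at chr11:98798507-98814766.

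Cdt1, which works with Cdc6 and is normally limited by geminin and by degradation of the protein, did not pass the test. Its control libraries were within a narrow band of 37.6, 38.5 and 39.0 CPM, and its optimized libraries spread around them with 31.5, 40.0 and 44.1 CPM. The log2 fold change of 0.01 ± 0.12 SE had no stable sign, since it was -0.01 without control library 1, -0.03 without optimized library 2 and -0.10 without optimized library 3, and negative also when counts were scaled by library size alone (-0.13).

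Orc1 and Orc6, subunits of the origin recognition complex, both fell 1.83-fold. Orc1 was scarce, with 2.89, 3.18 and 3.33 CPM in control and 1.80, 1.75 and 1.60 CPM in optimized libraries. Orc6 had 9.36, 10.5 and 11.0 CPM in control and 3.50, 7.32 and 6.00 CPM in optimized libraries. Neither overlapped between groups, but both calls depended on which libraries were kept (edgeR adjusted p = 0.0102 for Orc1 and 0.0163 for Orc6). Without control library 3 the edgeR adjusted p was 0.0519 for Orc1 and 0.0539 for Orc6, and without control library 2 it was 0.0645 for Orc6. The Orc6 exons overlap on the opposite strand with those of Vps35, a gene with 27.3 times as many counts. On the opposite strand of Orc1, Gm12743 covers 12.1% of the exon bases. Prpf38a, with 7.3 times the counts of Orc1, covers 0.45%.

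The subunits of the MCM ring did not fall alike. Mcm5, at chr8:75836140-75856231, had 53.7, 48.2 and 55.4 CPM in control and 17.7, 18.4 and 19.3 CPM in optimized libraries, a 2.84-fold fall (log2 fold change -1.50 ± 0.10 SE, edgeR adjusted p = 2.14e-06). Mcm4, Mcm7, Mcm2 and Mcm3 fell 1.95-, 1.86-, 1.76- and 1.45-fold, and in each of them the optimized libraries lay below all control libraries. Mcm6, at chr1:128259311-128287516, had 104.3, 101.0 and 97.5 CPM in control and 85.2, 85.1 and 96.4 CPM in optimized libraries.

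The Mcm6 groups came within about 1 CPM of each other and its log2 fold change of -0.18 ± 0.09 SE did not pass the test (edgeR adjusted p = 0.141). Mcm6 passed in 4 of 16 alternative settings. Among these were scaling by library size alone, at -0.31 (edgeR adjusted p = 0.0409), and log2(FPKM + 1) with limma, at -0.31 (limma adjusted p = 0.0355). The place of Mcm6 against the other subunits does not depend on the scaling. The log2 CPM of Mcm6 minus the mean log2 CPM of the 5 other subunits was 0.99 ± 0.08 in control and 1.75 ± 0.06 in optimized libraries (SD, n = 3 each), a 1.69-fold relative gain, and the exact two-sided permutation test over libraries gave p = 0.1, the smallest that 3 against 3 libraries allow. This comparison was chosen with the fold changes known, so its p-value is no independent evidence.

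FPKM, the count divided by transcript length and by library size, allows levels of different genes to be compared. The median log2 fold change of all genes tested was -0.13 with limma on log2(FPKM + 0.1), against 0.008 in the main test. Falls in FPKM therefore tend to read larger than those in CPM. Summed over the 6 subunits, FPKM was 102.7 ± 3.80 in control and 58.5 ± 4.33 in optimized libraries (SD, n = 3 each). Mcm3 held the highest FPKM among the subunits in control, at 25.9, ahead of Mcm6 at 23.2, and Mcm6 the highest in optimized libraries, at 18.5, ahead of Mcm3 at 16.2. As a share of the summed FPKM, Mcm6 went from 22.8%, 23.4% and 21.5% in control to 32.2%, 30.6% and 32.1% in optimized libraries, and Mcm5 from 14.8%, 14.1% and 15.4% to 8.48%, 8.39% and 8.13%. Mcm3 also took a higher share in optimized libraries, and Mcm2, Mcm4 and Mcm7 took lower ones, and for none of the 6 subunits did the shares overlap between groups.

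**Figure D3:**
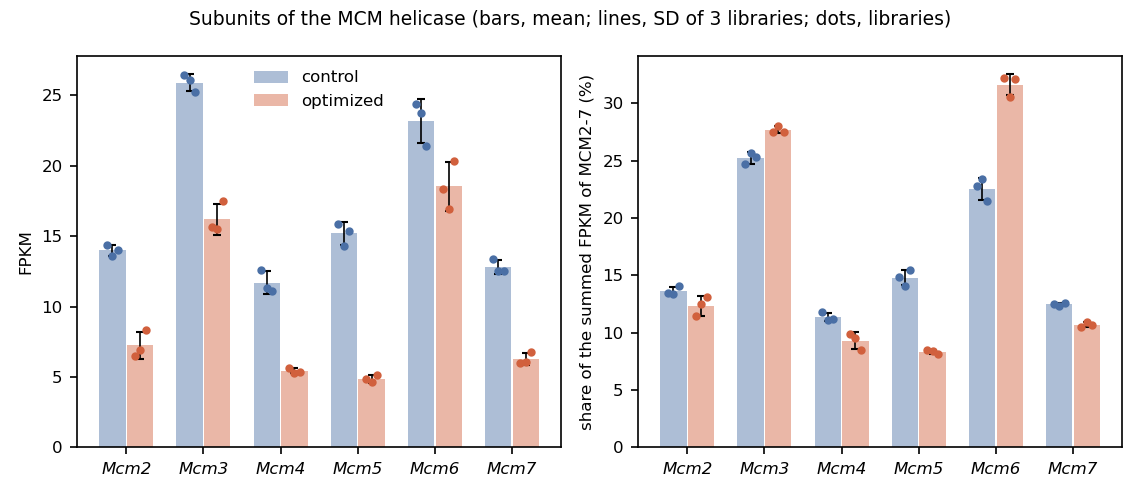
FPKM of the 6 subunits of the MCM helicase (left) and each subunit's share of their summed FPKM in percent (right), with bars for the mean, lines for the SD and dots for the 3 libraries of each group. Mcm6 rises from 22.5% to 31.6% of the sum while Mcm5 goes from 14.8% to 8.33%.

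Helicase activation was lower in 3 of its 5 genes, with log2 fold changes from -1.82 to -0.26 over the 5. Mcm10, which helps to switch on the loaded helicase, had 15.0, 14.2 and 13.4 CPM in control and 3.65, 5.07 and 3.34 CPM in optimized libraries, a 3.52-fold fall (log2 fold change -1.82 ± 0.17 SE, edgeR adjusted p = 2.5e-05). Mcm10 stands at chr2:4994516-5017629, is named after the MCM genes but is no subunit of the ring, and had the lowest value of the members beside Uhrf1. Its groups stood apart by more than 8 CPM.

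Cdc45, a constant part of the active helicase, fell 1.30-fold, from 11.9, 11.6 and 12.1 CPM to 8.71, 9.96 and 8.76 CPM (edgeR adjusted p = 0.0327). The groups did not overlap, yet the Cdc45 call was lost without any one of 4 libraries, with an edgeR adjusted p of 0.0947 without control library 1, 0.0771 without control library 2, 0.106 without control library 3 and 0.109 without optimized library 3. Exons of Ufd1 on the opposite strand cover 10.6% of the exon bases of Cdc45, and Ufd1 had 3.03 times its counts. The GINS subunits that complete the helicase differed, in that Gins2 fell 1.74-fold (edgeR adjusted p = 0.00206) while Gins1 had a log2 fold change of -0.45 ± 0.19 SE (edgeR adjusted p = 0.117) and Gins3 one of -0.26 ± 0.19 SE (edgeR adjusted p = 0.352). Gins1 passed in 4 of 16 alternative settings, among them scaling by library size alone, at -0.59 (edgeR adjusted p = 0.0367). Exons of the neighbouring gene Gse1, on the opposite strand, cover 67.3% of the exon bases of Gins2, and Gse1 had 6.44 times its counts with a log2 fold change of 0.81, so that the Gins2 value is uncertain where strand was not used in counting.

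The clamp and its loader fell in 3 of 5 genes. Pcna, the sliding clamp and the member with the highest level, had 275.5, 279.8 and 301.3 CPM in control and 174.4, 206.0 and 197.5 CPM in optimized libraries, a 1.48-fold fall (log2 fold change -0.57 ± 0.09 SE, edgeR adjusted p = 0.00102). Its FPKM went from 230.0 to 140.8 and ranked first of the 41 in both groups. Pcna thus kept its place while its level fell by less than the members' median.

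Replication factor C opens and loads the clamp. Its subunit Rfc5 fell 1.87-fold (edgeR adjusted p = 9.38e-05) and Rfc3 fell 1.48-fold (edgeR adjusted p = 0.0283). The Rfc3 call was lost without control library 1, 2 or 3, with an edgeR adjusted p of 0.0539, 0.0959 and 0.088. Rfc2 and Rfc4 had overlapping groups and log2 fold changes of -0.18 ± 0.10 and -0.46 ± 0.23 SE (edgeR adjusted p = 0.209 and 0.167).

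Rfc4 had 6.69, 5.63 and 6.48 CPM in control and 3.27, 4.21 and 6.24 CPM in optimized libraries. Only optimized library 3 reached into the control range, and without it Rfc4 passed, at -0.74 (edgeR adjusted p = 0.0268). Rfc2 passed in 4 of 16 alternative settings, among them scaling by library size alone, at -0.32 (edgeR adjusted p = 0.0208). Counts of 3 loader genes may hold reads of neighbours whose exons overlap theirs on the opposite strand. Eif4a2 covers 16.55% of the exon bases of Rfc4 and had 37.4 times its counts. Wsb2 covers 41.4% of those of Rfc5 and had 13.5 times its counts. Lat2 covers 24.3% of those of Rfc2 and had 3.56 times its counts.

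DNA synthesis fell in all 7 of its genes, with a median log2 fold change of -0.90. Prim1, the primase subunit that makes the RNA primers, had 7.17, 8.65 and 6.15 CPM in control and 2.70, 2.77 and 2.85 CPM in optimized libraries, a 2.63-fold fall (log2 fold change -1.40 ± 0.18 SE, edgeR adjusted p = 0.00023). Pola1, the catalytic subunit of polymerase alpha that extends the primers, had 12.2, 16.0 and 12.9 CPM against 6.11, 6.39 and 6.82 CPM, a 2.13-fold fall (edgeR adjusted p = 0.000248). Both genes of primer synthesis were tightly grouped in the optimized libraries and more widely spread in control.

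The catalytic subunit of the leading-strand polymerase, Pole, fell 2.26-fold, from 11.6, 11.2 and 10.1 CPM to 5.11, 4.60 and 4.84 CPM (edgeR adjusted p = 9.27e-05). Pold1, that of the lagging-strand polymerase, fell 1.66-fold (edgeR adjusted p = 0.000616). Rpa2, a subunit of the protein that coats single-stranded DNA, fell 1.86-fold. Lig1, the ligase that joins the lagging-strand fragments, fell 1.82-fold, and Fen1, the nuclease that trims them, fell 1.48-fold. None of these 5 genes had overlapping groups.

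Nucleotide supply fell in all 5 of its genes, with a median log2 fold change of -0.86. Rrm2, the subunit of ribonucleotide reductase that is made in S phase, had 18.8, 22.5 and 19.3 CPM in control and 8.10, 8.13 and 7.88 CPM in optimized libraries, a 2.51-fold fall (log2 fold change -1.33 ± 0.12 SE, edgeR adjusted p = 1.64e-05). Rrm1, its partner subunit, had 59.0, 64.1 and 61.1 CPM against 34.6, 31.1 and 36.1 CPM, a 1.81-fold fall (edgeR adjusted p = 6.93e-05). The enzyme's subunits thus fell by different amounts, in groups that did not overlap for either.

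Tk1, thymidine kinase of the salvage pathway, fell 2.14-fold (edgeR adjusted p = 0.000727), with exons that overlap Syngr2, a gene with 16.1 times its counts. Dut, which removes dUTP, fell 1.72-fold (edgeR adjusted p = 0.00552). Tyms, thymidylate synthase, was scarce and fell 1.69-fold, from 7.04, 7.50 and 8.09 CPM to 3.98, 5.49 and 3.87 CPM (edgeR adjusted p = 0.00802). The highest optimized value of Tyms was still below its lowest control value.

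Chromatin genes fell in 3 of 3. Uhrf1, which brings the maintenance DNA methyltransferase to newly copied DNA, had 50.6, 47.0 and 46.1 CPM in control and 13.6, 12.2 and 15.0 CPM in optimized libraries. This 3.52-fold fall had the lowest log2 value of the members, hardly apart from that of Mcm10 (log2 fold change -1.82 ± 0.11 SE, edgeR adjusted p = 1.29e-06), and 1.69% of all genes tested had a lower value. Uhrf1 stands at chr17:56610275-56630489, and by FPKM it went from rank 11 to rank 20 of the 41.

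Chaf1a and Chaf1b encode subunits of chromatin assembly factor 1, which sets new histones on the copied strands. Chaf1a fell 2.29-fold, from 21.4, 20.3 and 21.5 CPM to 7.53, 9.62 and 10.5 CPM (edgeR adjusted p = 9.02e-05). Chaf1b fell 1.47-fold, from 13.6, 14.3 and 14.4 CPM to 9.90, 8.43 and 10.5 CPM (edgeR adjusted p = 0.00612). Exons of Ubxn6 on the opposite strand cover 51.0% of the exon bases of Chaf1a, and Ubxn6 had 3.85 times its counts.

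The E2F factors and E cyclins hold the only member that rose. E2f2, an activator of the family, had 4.90, 5.43 and 3.95 CPM in control and 18.4, 16.2 and 14.9 CPM in optimized libraries, from 112, 133 and 108 counts and from 388, 381 and 307 counts. Every optimized library lay more than 9 CPM above the highest control library, a 3.47-fold rise (log2 fold change 1.79 ± 0.15 SE, edgeR adjusted p = 1.45e-05). E2f2 stands at chr4:135899585-135923368, and no other listed gene shares its exons.

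E2f1, the other activator among the members, had 34.3, 31.1 and 36.1 CPM in control and 23.1, 25.5 and 23.9 CPM in optimized libraries, a 1.40-fold fall (log2 fold change -0.48 ± 0.10 SE, edgeR adjusted p = 0.00391). The ratio of E2f2 to E2f1 in FPKM was 0.0885, 0.108 and 0.0678 in control and 0.491, 0.393 and 0.385 in optimized libraries. E2f1 thus stayed the more abundant of the pair in every library, although the ratio was 4.80 times as high under the optimized conditions. By FPKM E2f2 moved from rank 40 to rank 25 of the 41.

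E2f7 and E2f8 are the atypical family members that repress E2F targets late in S phase. E2f8 fell 2.25-fold, from 10.2, 9.67 and 9.74 CPM to 4.97, 3.92 and 4.26 CPM (edgeR adjusted p = 0.000164). E2f7 fell 2.39-fold, from 4.02, 3.63 and 4.25 CPM to 2.23, 0.894 and 1.89 CPM (edgeR adjusted p = 0.0104), with the widest standard error of the members, 0.30 on the log2 scale. In both genes all optimized values lay below all control values.

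Among the remaining factors, outside the 41 members, E2f3, the third activator, had 26.6, 27.4 and 27.1 CPM in control and 41.7, 37.5 and 38.9 CPM in optimized libraries, a 1.46-fold rise without overlap (edgeR adjusted p = 0.000993). E2f4, the repressor most used in resting cells, had a log2 fold change of 0.16 ± 0.11 SE (edgeR adjusted p = 0.305). E2f6, a repressor that acts without RB, had 27.6, 30.3 and 30.0 CPM in control and 19.3, 22.1 and 21.8 CPM in optimized libraries and fell without overlap (log2 fold change -0.47 ± 0.10 SE, edgeR adjusted p = 0.0047). E2f5 had a log2 fold change of -0.17 ± 0.14 SE (edgeR adjusted p = 0.413). The activators thus did not move together, with E2f2 and E2f3 higher and E2f1 lower.

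**Figure D4:**
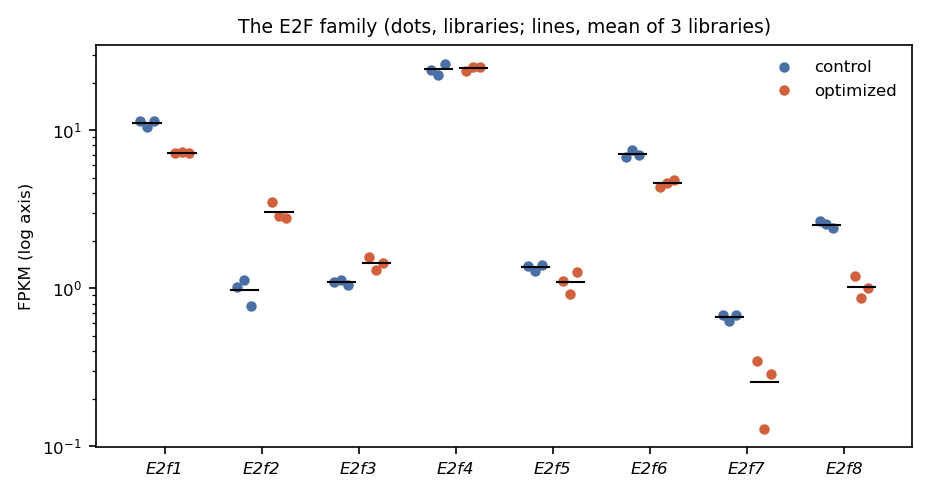
FPKM on a log axis of the 8 E2F genes in each library, with lines for the mean of 3 libraries. E2f2 and E2f3 lie higher in optimized libraries, E2f1, E2f6, E2f7 and E2f8 lie lower, E2f5 differs little and E2f4, the most abundant, overlaps.

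Cyclin E switches the cell into S phase with its kinase Cdk2. Ccne1 fell 1.62-fold, from 5.64, 6.44 and 7.25 CPM to 4.74, 3.24 and 4.01 CPM (edgeR adjusted p = 0.0184), and Ccne2 fell 1.49-fold, from 10.8, 11.3 and 9.37 CPM to 7.62, 6.39 and 7.06 CPM (edgeR adjusted p = 0.00925). Neither gene's groups overlapped. The Ccne1 call was lost without control library 2, control library 3 or optimized library 3, with an edgeR adjusted p of 0.0595, 0.0828 and 0.0541. Exons of Ints8 on the opposite strand cover 15.2% of the exon bases of Ccne2. Exons of 1600014C10Rik, also on the opposite strand, cover 1.93% of those of Ccne1. That gene had 9.72 times the counts of Ccne1 and a log2 fold change of 1.09.

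Other genes of the pathway were counted from lists that hold no member. Of 45 other replication genes 23 fell and 3 rose, with a median log2 fold change of -0.43. The lowest were Dscc1, part of the clamp loader for cohesion, at -2.46, from 1.79 to 0.323 CPM on average, Samhd1, which degrades dNTPs, at -1.44, and Pclaf, a partner of PCNA, at -1.42. Those that rose were Dna2, a nuclease and helicase of fragment processing, at 1.14, Dctpp1, which cleans the nucleotide pool, at 0.77, and Pold4, the small subunit of polymerase delta, at 0.58. Dna2 had groups that did not overlap, from 13.8 to 16.7 CPM in control and from 28.6 to 40.5 CPM in optimized libraries, whereas Dctpp1 and Pold4 overlapped.

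Of 13 genes of RB and E2F control, 6 fell and 1 rose, with a median log2 fold change of -0.17. Ccna2, the cyclin of S and G2 phase, was the lowest at -1.01, followed by Rbl1, the RB relative p107, at -0.75 and Skp2, which marks Cdk inhibitors for degradation, at -0.64. The highest were E2f3 at 0.54, which passed the test, and Cdc25a, the phosphatase that activates Cdk2, at 0.28 and E2f4 at 0.16, which did not (edgeR adjusted p = 0.0797 and 0.305).

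Genes of mitosis fell in 20 of 20, at a median of -1.02 on the log2 scale, and in all 20 every optimized library lay below every control library. The lowest were Mybl2, a transcription factor of the late cycle, at -1.43, Birc5, a subunit of the chromosomal passenger complex, at -1.33 and Plk1, a mitotic kinase, at -1.29. The highest were Bub1b of the spindle checkpoint at -0.40, Kif20a, a kinesin of cytokinesis, at -0.48 and Cdc20, which activates the anaphase complex, at -0.53. The number of mitosis genes that passed as lower was 16, 15 and 18 without control library 1, 2 and 3. It stayed at 20 without optimized library 1. Of 67 replication-dependent histone genes, whose transcripts carry no poly(A) tail, 20 had enough counts to be tested and 1 fell.

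**Figure D5:**
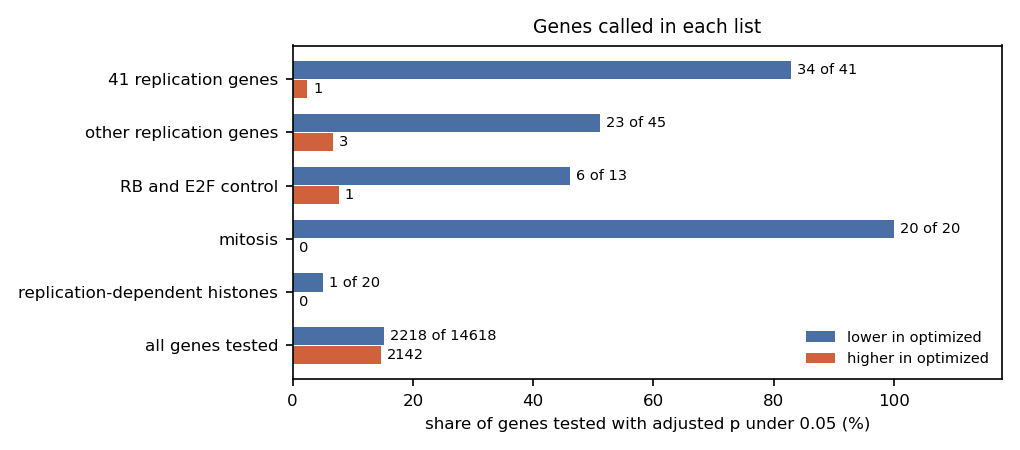
Share of the genes tested in each list that passed an adjusted p of 0.05 in either direction, with the counts beside the bars. The 41 replication genes, the 45 other replication genes, the 13 RB and E2F control genes and the 20 mitosis genes stand above the 15.2% of all genes tested that were lower, and the histone genes, with 1 of 20, below it.

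Leaving out any one library left 29 to 34 members lower and 1 higher. Exons of 17 members overlap those of another listed gene, mostly on the opposite strand. Beside the members named above with such an overlap, these include E2f7, E2f8, Fen1, Lig1, Mcm7 and Pcna. Of the 24 other members 19 fell and 1 rose, with a median log2 fold change of -0.80. Scaling by library size alone gave 37 lower members and 1 higher one, and it shifted the median of all genes tested to -0.12 and the share of all calls that were higher from 49.1% to 32.3%, while limma on FPKM gave shares between 28.4% and 31.3%. Relative to the median of all genes, the members' median was -0.82 in the main test, -0.82 with library size alone, -0.81 with limma on log2(FPKM + 0.1), -0.62 with limma on log2(FPKM + 1) and -0.60 with that scale at a mean FPKM of at least 1, where the pseudocount understates the change of low genes.

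Markers fixed by list were checked in the same libraries. Of 12 microglia markers 11 were in the table, and their summed level was 11960 to 13630 CPM in control and 16620 to 23170 CPM in optimized libraries, with 6 higher and 2 lower. Astrocyte markers summed to 38.3 to 40.0 CPM against 26.2 to 31.2 CPM, with 1 of 8 called, Aldh1l1, lower. On average the sum went from 39.4 to 28.6 CPM and Aldh1l1 alone from 16.5 to 4.64 CPM. Of the astrocyte markers not called, Gfap, S100b, Gja1 and Aldoc had positive log2 fold changes and Aqp4, Slc1a2 and Slc1a3 negative ones. Markers of the oligodendrocyte lineage summed to 131.5 to 147.8 CPM against 164.6 to 199.5 CPM, with 1 of 7 called, Mbp, higher. Neuron markers summed to 3.08 to 4.72 CPM against 5.30 to 6.34 CPM, with 1 of 4 tested called, Nefl, higher. Fibroblast and mural markers summed to 19.4 to 25.5 CPM against 19.9 to 77.0 CPM, with a lowest edgeR adjusted p of 0.109 for Col1a2, and endothelial markers to 78.8 to 94.4 CPM against 270.9 to 349.1 CPM, nearly all of it Flt1. No marker was at 0 in every library, and the part of other cell types in the members' fall was not tested.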

How the data were processed

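HISAT2 alignment to mm39 and counting by featureCounts were done by the authors. They deposited raw counts per gene, without normalization, and FPKM, each for 41079 genes in 6 libraries. Versions, annotation, strand setting and handling of reads shared by genes are not given in the sources used here. No FPKM was used in the main test. Samples were grouped by their labels and columns were matched by the names in the labels.

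The counts were fitted with edgeR 4.0.16 under R 4.3.3 (filterByExpr, TMM, glmQLFit and glmQLFTest, condition only, common dispersion 0.0164), with Benjamini-Hochberg adjustment over 14618 genes and a threshold of 0.05. The standard error is the log2 fold change over the square root of F. Alternatives used DESeq2 1.42.0 and limma 3.58.1 on log2(FPKM + 1). The fits were tested on simulated data. The members and lists were chosen with earlier results of these data known, so no test over a list is given. All members were named, and of the other lists the 3 lowest and the 3 highest, with E2f5 and E2f6 added after their values were seen to complete the family. Positions and exon overlaps are from GENCODE M39 on GRCm39, and 41 of 41 members were found. Count totals of 20628148 to 27261839 limit the precision of members with few counts. In neither group did any library repeat another.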

Additional observations from a re-analysis of the deposited data

How the results depend on the processing

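The count of lower members ran from 28 to 37 over 16 alternatives and the count of higher members was 1 in each. The members' median log2 fold change of -0.81 moved to -0.94 with library size alone and to -0.94 with limma on log2(FPKM + 0.1), and it was -0.71 with limma on log2(FPKM + 1), -0.74 at a mean FPKM of at least 1 and between -0.86 and -0.76 without single libraries. With an adjusted p under 0.01, 2873 genes were called in place of 4360. Histone genes called lower went from 1 to 3 in each of the 3 limma fits on FPKM. Of members without exon overlap 19 of 24 were lower, as fewer genes were counted. Cdt1, never past the threshold, was negative with library size alone (-0.13), no filter (-0.015), limma on FPKM with a pseudocount of 1 (-0.14) or 0.1 (-0.15) and at a mean FPKM of at least 1 (-0.14), and without single libraries it ran from -0.10 to 0.13. The cause of these shifts was not tested. Of 652 values of single members over the alternatives, 611 kept direction and side of the threshold, 19 lost and 13 gained a call and 9, all of Cdt1, changed sign. Losses touched 6 members (Ccne1, Cdc45, E2f7, Orc1, Orc6 and Rfc3). With the replicate number as a block, 4924 genes and 34 lower members were called and Cdt1 was at -0.004, but the labels tie no number to a shared animal, batch or day, deviations of same-numbered libraries correlated at 0.273, -0.012 and 0.185, and only libraries numbered 1 correlated best with each other. The members with the fewest counts on average, and so the largest relative counting error, were Orc1, E2f7 and Gins3.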
